A study of Mus musculus with 14 samples.

Results

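The genes described here encode the enzymes that lengthen and desaturate long-chain fatty acids in the mouse proximal epididymis: the elongases Elovl1, Elovl2, Elovl3, Elovl4, Elovl5, Elovl6 and Elovl7 and the desaturases Fads1, Fads2 and Fads3. All 10 were found by gene symbol among the 21929 genes of the array, each with 1 probe set. The family was chosen by gene symbol, and it was selected on measured values in so far as the fall of Elovl4 after ligation, an EDL minus sham difference in these arrays, was known, so the ligation values of Elovl4 are given as a description without a test. RNA was hybridised to 14 Clariom S Mouse arrays, 1 per tissue sample. The cKO mice, labelled as conditional Arl13b knockouts in Krt5-positive basal cells, gave 3 arrays after efferent duct ligation (EDL) and 3 sham arrays. Control (Ctl) mice gave 4 EDL arrays and 4 sham arrays. Mice were 8 weeks old, each had EDL on one side and sham surgery on the other, and proximal epididymis was collected 48 h after surgery, with 100 ng of total RNA labelled per sample. The labels used here name neither the Cre line nor the alleles that the Ctl mice carry.

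In long-chain fatty acid elongation, an Elovl enzyme of the endoplasmic reticulum condenses an acyl-CoA with malonyl-CoA, and a ketoacyl reductase, a dehydratase and an enoyl reductase complete the cycle. Elovl1, Elovl3, Elovl6 and Elovl7 act mainly on saturated and monounsaturated chains, Elovl2 and Elovl5 on polyunsaturated chains, and Elovl4 makes very-long-chain fatty acids, known from retina, brain, skin and testis. Fads2 and Fads1 each introduce a double bond in the synthesis of polyunsaturated fatty acids such as arachidonic acid. The epididymis is where sperm mature and their membrane lipids are remodelled. Its most proximal part, the initial segment, depends on factors that arrive in the lumen from the testis through the efferent ducts, and EDL cuts off this flow.

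Values are log2 intensities. A probe set's level cannot be set against another probe set's, so genes are compared only in how they differ between groups. The 95th percentile of 1463 olfactory and vomeronasal receptor genes, 5.31, served as a background level. Differences were tested with limma on all 21929 genes with Benjamini-Hochberg adjustment, and a gene was called at an adjusted p under 0.05. The arrays had medians between 6.96 and 7.06 and all carried 1 scan date. Precision is set by how few arrays each group has: the median 95% interval over all genes reached 0.26 to each side of the EDL difference in cKO and 0.22 in Ctl. The targeted gene, Arl13b, averaged 7.29 ± 0.25 in cKO EDL (SD, n = 3) and 7.43 ± 0.12 in Ctl EDL (n = 4), and 7.20 ± 0.04 in cKO sham (n = 3) and 7.10 ± 0.26 in Ctl sham (n = 4). It differed between genotypes in neither surgery group by more than its interval (limma adjusted p = 0.9 in EDL and 0.999 in sham). The position of its probes relative to the deleted part was not given in these sources, and basal cells are one of several cell types in the tissue.

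After EDL, Elovl4 differed from sham by -4.05 log2 units in cKO and by -4.23 in Ctl, Elovl7 and Elovl6 fell by smaller amounts, and the other members were not called. This held in both genotypes. Besides Elovl4, 2 of the other 9 members were called and both fell in each genotype, where 4.74% of all genes fell in cKO and 4.57% in Ctl. No member rose, against 5.04% of all genes in cKO and 3.32% in Ctl. The median difference over all 10 members was -0.07 in cKO and -0.03 in Ctl, where the medians over all genes were 0.005 and 0.008.

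The windows upstream of the starts of Elovl4, Elovl6 and Elovl7 are shown because these are the members that were lower after EDL. Each line gives the 250 bases before the gene's start in RefSeq's GRCm38.p6 annotation, 5′ to 3′ on the gene's strand. Capitals mark matches of GGGCGG, the GC box bound by Sp1, on either strand.
Elovl4, chr9:83806306-83806555, minus strand: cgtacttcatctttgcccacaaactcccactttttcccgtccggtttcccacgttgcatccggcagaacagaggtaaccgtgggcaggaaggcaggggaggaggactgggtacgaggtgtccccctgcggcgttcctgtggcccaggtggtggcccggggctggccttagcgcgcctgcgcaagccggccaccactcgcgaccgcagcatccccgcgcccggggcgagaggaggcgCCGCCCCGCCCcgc
Elovl6, chr3:129532136-129532385, plus strand: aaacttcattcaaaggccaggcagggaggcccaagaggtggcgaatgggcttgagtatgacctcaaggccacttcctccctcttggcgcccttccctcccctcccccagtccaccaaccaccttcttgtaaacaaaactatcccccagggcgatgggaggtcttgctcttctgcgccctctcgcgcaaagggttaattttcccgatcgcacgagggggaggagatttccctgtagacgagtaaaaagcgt
Elovl7, chr13:108214154-108214403, plus strand: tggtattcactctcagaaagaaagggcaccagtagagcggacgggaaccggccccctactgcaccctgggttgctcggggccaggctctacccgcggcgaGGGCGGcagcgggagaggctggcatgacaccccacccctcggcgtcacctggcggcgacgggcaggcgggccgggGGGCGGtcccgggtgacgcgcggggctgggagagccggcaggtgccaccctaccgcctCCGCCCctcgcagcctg
Besides GGGCGG, the windows were searched on both strands for CACGTG, the E-box bound by Srebp and other basic helix-loop-helix factors, for CCAAT, the NF-Y box, for CCGGAA, a core of ETS factor sites, and for TCACNCCAC, a form of the sterol regulatory element. Matches of different motifs can share bases. Elovl4 held GGGCGG 14 and 9 bases before its start and Elovl7 held it 150, 75 and 17 bases before, while Elovl6 held none of the 5 motifs. GGGCGG was not particular to the members that were lower: Elovl1, Elovl2, Fads2 and Fads3, which were not called, held it too. GGGCGG was present in 32.7% of all 32851 windows of this length, CCAAT in 33.8%, CCGGAA in 12%, CACGTG in 6.02% and TCACNCCAC in 1.05%. Windows were at hand for 8 of the 10 members, and among these Elovl5 held CACGTG 161 bases and CCAAT 71 and 17 bases before its start. CCAAT was also found for Elovl1 and Fads3. The share of G and C was 69.6% for Elovl4, 56.4% for Elovl6 and 73.6% for Elovl7, against a median of 52.4% over all windows. Which start is used in the epididymis was not measured, and these matches are a description of the windows.

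Elovl4, the elongase of very-long-chain fatty acids, measured 6.52, 6.15 and 6.0 in cKO EDL and 10.41, 10.28 and 10.14 in cKO sham. In Ctl it measured 6.11, 5.76, 5.85 and 6.24 after EDL and 10.25, 10.13, 10.15 and 10.31 after sham surgery. Every EDL array lay more than 3 log2 units below every sham array, and all EDL arrays stayed above the background level of 5.31. The EDL minus sham difference was -4.05 ± 0.14 in cKO (SE, n = 3 per group) and -4.23 ± 0.12 in Ctl (n = 4 per group), 16.6-fold and 18.7-fold lower. Ranked by this difference, Elovl4 was number 11 from the bottom of the 21929 genes in cKO and number 10 in Ctl.

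Elovl6, which elongates palmitic to stearic acid and is a classic Srebp-1c target in liver, measured 11.95, 12.03 and 11.99 in cKO EDL and 12.66, 12.56 and 12.56 in cKO sham. In Ctl it measured 12.17, 11.94, 11.96 and 12.09 after EDL and 12.60, 12.38, 12.45 and 12.55 after sham surgery. The groups did not overlap in either genotype, as for 25.8% of all genes in cKO and 14.1% in Ctl. The difference was -0.60 ± 0.09 in cKO (SE, limma adjusted p = 0.000429), 1.52-fold lower, and -0.46 ± 0.07 in Ctl (adjusted p = 0.00133), 1.37-fold lower.

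Elovl7, an elongase of saturated chains, measured 7.34, 7.13 and 6.97 in cKO EDL and 8.46, 8.11 and 7.97 in cKO sham. In Ctl it measured 7.39, 7.06, 7.19 and 7.46 after EDL and 8.14, 7.77, 7.99 and 8.20 after sham surgery. Again no EDL array reached a sham array of its genotype, and groups were apart for 25.8% of all genes in cKO and 14.1% in Ctl. The difference was -1.04 ± 0.15 in cKO (SE, limma adjusted p = 0.000511), 2.06-fold lower, and -0.75 ± 0.13 in Ctl (adjusted p = 0.00223), 1.68-fold lower. Elovl7 was thus the member with the largest difference after Elovl4 in both genotypes, with intervals of -1.36 to -0.72 in cKO and -1.03 to -0.47 in Ctl against -0.79 to -0.42 and -0.61 to -0.30 for Elovl6.

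The size of these differences depends on which deposited table is read. The other deposited table of log2 values gave -6.24 for Elovl4 in cKO and -6.47 in Ctl, -1.06 and -0.76 for Elovl6, and -1.62 and -1.16 for Elovl7. Over the 2146 genes called in cKO and the 1729 called in Ctl, its differences were larger by a median ratio of 1.64 in each, so the folds above are those of 1 table. Which normalization separates the tables was not stated.

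**Figure D1:**
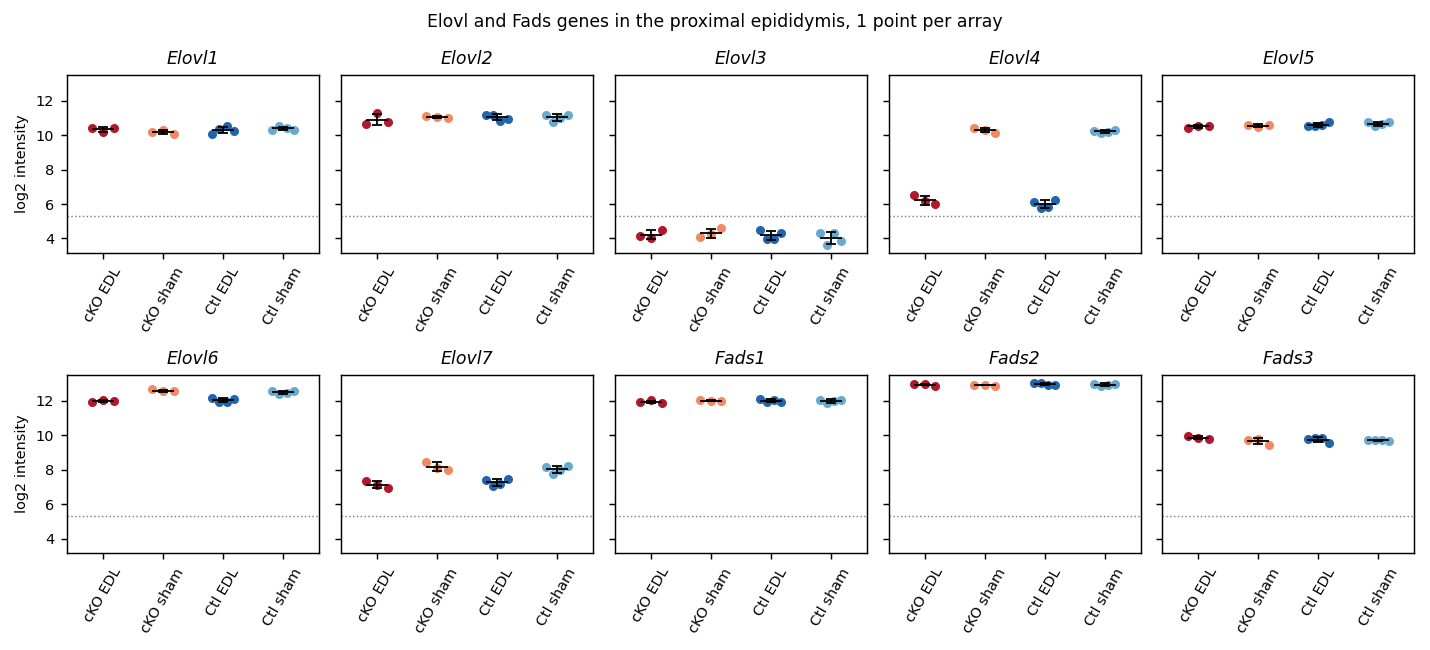
Log2 intensity (y axis) of each Elovl and Fads gene in the 4 groups, 1 point per array, with the mean and SD in black. The dotted line is the background level of 5.31. Elovl4, Elovl6 and Elovl7 lie lower in both EDL groups, Elovl3 lies under the line in all groups, and the other panels are level.

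The polyunsaturated elongases and the desaturases were not called after EDL in either genotype. Elovl2, which lengthens long polyunsaturated chains toward docosahexaenoic acid, measured 10.65, 11.29 and 10.76 in cKO EDL and 11.13, 11.05 and 11.01 in cKO sham, and ranged from 10.81 to 11.19 in Ctl EDL and from 10.74 to 11.17 in Ctl sham. Its groups overlapped, and its differences were -0.16 ± 0.16 in cKO and 0.01 ± 0.14 in Ctl. Elovl5, its partner on shorter polyunsaturated chains, differed by -0.06 ± 0.09 in cKO and -0.06 ± 0.08 in Ctl. All 14 of its arrays lay between 10.42 and 10.76.

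Fads2, the enzyme that introduces the first double bond of this pathway, averaged 12.94 ± 0.04 in cKO EDL and 12.92 ± 0.02 in cKO sham (SD, n = 3 each), and 12.98 ± 0.06 in Ctl EDL and 12.94 ± 0.07 in Ctl sham (n = 4 each). Its interval ran from -0.13 to 0.18 in cKO and from -0.10 to 0.17 in Ctl, the narrowest of the family. Fads1, which acts after it, ranged from 11.90 to 12.03 in cKO EDL and from 11.97 to 12.03 in cKO sham, and averaged 12.01 ± 0.08 in Ctl EDL and 11.99 ± 0.09 in Ctl sham (n = 4 each). In both genotypes the intervals of these genes lay on both sides of no difference, and a change within them cannot be told from none with these arrays.

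Fads3, a desaturase of sphingoid bases, measured 9.94, 9.86 and 9.81 in cKO EDL and 9.75, 9.77 and 9.45 in cKO sham. These groups did not overlap, as for 25.8% of all genes in cKO, and the difference of 0.21 ± 0.10 was not called (limma adjusted p = 0.223). In Ctl, Fads3 ranged from 9.57 to 9.84 after EDL and from 9.68 to 9.75 after sham surgery, with a difference of 0.04 ± 0.08. Elovl1, an elongase of saturated very-long chains that supplies sphingolipids, differed by 0.15 ± 0.12 in cKO and -0.08 ± 0.10 in Ctl. Elovl3, best known from skin glands and brown fat, stayed at or under 4.58 on every array, below the background level, and no fold is given for it.

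**Figure D2:**
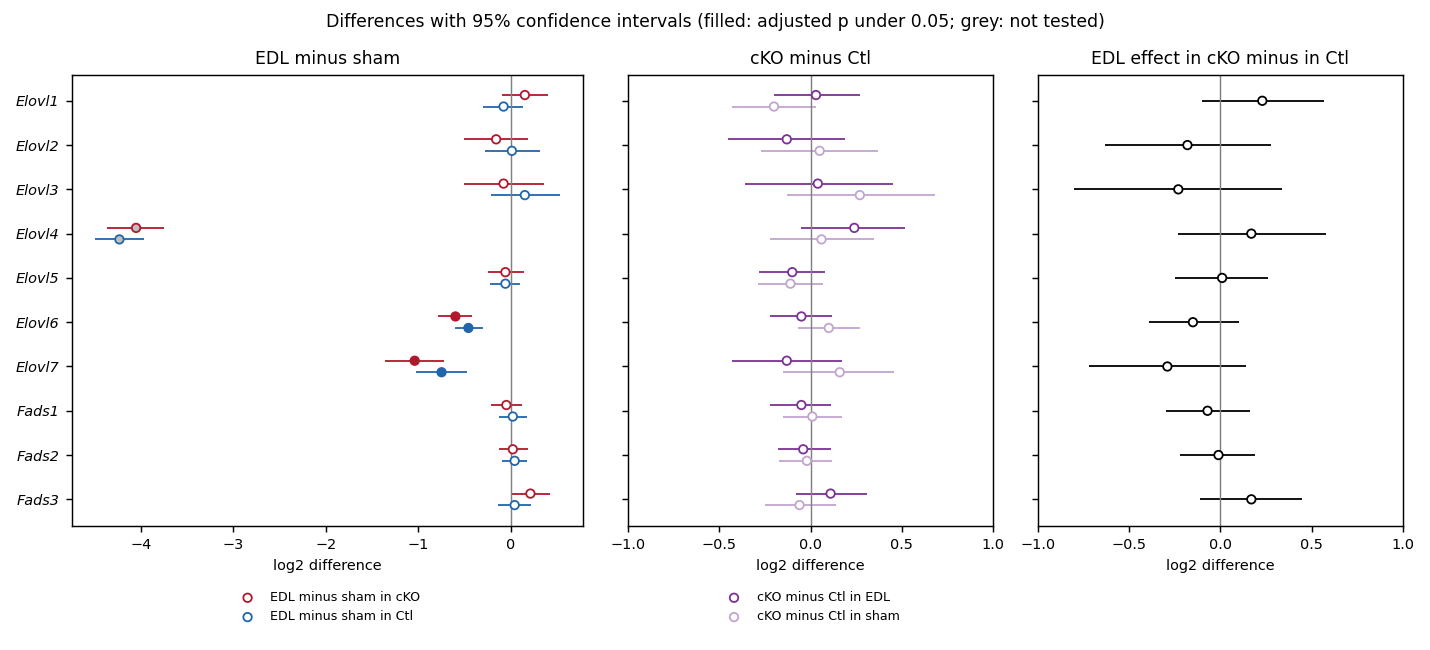
Log2 differences (x axis) with 95% confidence intervals for each gene, EDL minus sham in cKO and Ctl (left), cKO minus Ctl in EDL and sham tissue (middle) and the EDL difference in cKO minus that in Ctl (right). Filled points mark an adjusted p under 0.05 and grey points the Elovl4 ligation differences, which were not tested. Only Elovl6 and Elovl7 are filled, in the left panel, while all middle and right intervals hold 0.

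The comparison of cKO with Ctl asks whether loss of Arl13b from basal cells altered these genes. No member was called in EDL tissue, where 0% of all genes were called, nor in sham tissue, again with 0% of all genes. In both, limma called 0 genes over the whole array, with 1333 genes at an unadjusted p under 0.05 in EDL tissue and 800 in sham tissue, and no member among either. In EDL tissue the members' differences ran from -0.13 for Elovl2 and for Elovl7 to 0.24 for Elovl4, whose interval was -0.05 to 0.52. In sham tissue they ran from -0.20 for Elovl1 to 0.27 for Elovl3, which is below background. Elovl1 measured 10.19, 10.30 and 10.07 in cKO sham and 10.30, 10.50, 10.41 and 10.32 in Ctl sham. It was the only member whose genotype groups did not overlap in sham tissue, as for 4.9% of all genes, and in EDL tissue none of the 10 was separate, against 5.75% of all genes. Elovl1 had a limma adjusted p of 0.999.

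The EDL difference itself was compared between genotypes. No member was called for this interaction, where 0% of all genes were called and 899 had an unadjusted p under 0.05. The EDL difference in cKO minus that in Ctl was -0.29 ± 0.20 for Elovl7 and -0.15 ± 0.11 for Elovl6 (limma adjusted p = 0.985 for each). The intervals, -0.72 to 0.14 and -0.39 to 0.10, leave room for a difference in either direction. Elovl4 had an interaction of 0.17 ± 0.19.

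Other genes of fatty acid metabolism were read as 8 lists chosen with earlier results of these data known, 85 of whose 89 genes were measured. In cKO 16 fell and 3 rose after EDL, and in Ctl 15 fell and 4 rose. As shares, 18.8% of the list genes fell in cKO and 17.6% in Ctl, against 4.74% and 4.57% of all genes. The shares that rose were 3.53% in cKO and 4.71% in Ctl, against 5.04% and 3.32% of all genes. Because of how the lists were chosen, these shares and the counts per list are a description and not a test. The median over these genes was -0.06 in cKO and -0.04 in Ctl. The genes that fell in both genotypes numbered 12, which is 75% of those in cKO and 80% of those in Ctl, and over all genes the shares were 68.5% and 71.1%. They were Scd1, Scd2, Acaca, Srebf1, Insig1, Mfsd2a, Sptlc1, Cers2, Sgms1, Sgms2, Lclat1 and Pla2g6. None of the 85 was called between genotypes or in the interaction, with a lowest limma adjusted p of 0.797.

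Of 7 partners that share the elongation cycle with the Elovl enzymes, 1 rose in cKO, where 5.04% of all genes rose, and 1 fell in Ctl, where 4.57% of all genes fell. Their median differences were -0.11 in cKO and -0.09 in Ctl. Hacd1, a dehydratase, differed by 0.39 ± 0.08 in cKO (limma adjusted p = 0.00694) and 0.14 ± 0.07 in Ctl (adjusted p = 0.295). Its call in cKO was lost when only the 6 cKO arrays were fitted (adjusted p = 0.0506). Hsd17b12, the ketoacyl reductase, differed by -0.18 ± 0.08 in cKO (adjusted p = 0.183) and -0.29 ± 0.07 in Ctl (limma adjusted p = 0.0166). That call was lost without Ctl sham replicate 2 (adjusted p = 0.0593), Ctl EDL replicate 3 (0.0532) or Ctl sham replicate 5 (0.0553). Of the other dehydratases, Hacd4 differed by 0.88 ± 0.38 in cKO and 0.31 ± 0.33 in Ctl, and Hacd3 by -0.27 ± 0.10 and -0.22 ± 0.09, with no call (limma adjusted p of 0.113 or more). Tecr, the enoyl reductase, differed by -0.02 ± 0.08 in cKO and -0.04 ± 0.07 in Ctl.

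Among the other desaturases, 3 of 7 fell in each genotype and none rose, with medians of -0.40 in cKO and -0.20 in Ctl. Over all genes, 4.74% fell in cKO and 4.57% in Ctl. Scd1, the stearoyl-CoA desaturase that makes oleic acid from the product of Elovl6, measured 10.21, 10.10 and 10.35 in cKO EDL and 11.76, 11.69 and 11.71 in cKO sham. In Ctl it measured 10.23, 10.61, 9.95 and 10.35 after EDL and 11.90, 11.48, 11.59 and 11.75 after sham surgery. No EDL array reached a sham array in either genotype, and groups were apart for 25.8% of all genes in cKO and 14.1% in Ctl. Scd1 fell, with a difference of -1.50 ± 0.14 in cKO (limma adjusted p = 9.29e-06) and -1.40 ± 0.12 in Ctl (adjusted p = 3.84e-06). Scd2, its paralog, fell, with a difference of -0.41 ± 0.08 in cKO and -0.42 ± 0.07 in Ctl (adjusted p = 0.00558 and 0.00167). Scd4 was called in cKO only, and Fads6, a relative of the Fads genes whose substrate is not established, in Ctl only, and neither difference between genotypes was called. Scd4 fell by 0.52 ± 0.12 in cKO (adjusted p = 0.0164) and lost its call without replicates 2 (0.0671) or 4 (0.0684) of cKO EDL or replicate 4 of cKO sham (0.0692), or with only the cKO arrays fitted (0.0575). Fads6 fell by 0.53 ± 0.13 in Ctl (adjusted p = 0.0198) and lost its call without replicates 3 (0.0509) or 4 (0.0632) of Ctl sham or replicate 5 of Ctl EDL (0.0611), or with the p-values of the authors' deposited table (0.0511).

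De novo fatty acid synthesis makes the palmitic acid that Elovl6 extends. The list read here also holds Mcat, Oxsm and Mecr of mitochondrial fatty acid synthesis, so its counts are not those of this pathway alone. Of the 10 genes on the list, 2 fell in cKO and 1 in Ctl and none rose, with medians of 0.03 and -0.04. Over all genes, 4.74% fell in cKO and 4.57% in Ctl. Acaca, the acetyl-CoA carboxylase that supplies malonyl-CoA, fell, with a difference of -0.41 ± 0.09 in cKO (limma adjusted p = 0.00852) and -0.34 ± 0.08 in Ctl (adjusted p = 0.0126). Fasn, the fatty acid synthase, differed by 0.02 ± 0.09 in cKO and -0.13 ± 0.08 in Ctl (adjusted p = 0.94 and 0.402), and Acly by 0.03 ± 0.07 and 0.03 ± 0.06. Slc25a1, the mitochondrial citrate carrier, differed by -0.10 ± 0.09 in cKO and -0.25 ± 0.08 in Ctl and was called in neither (adjusted p = 0.587 and 0.0696). Acss2, the other gene that fell in cKO, differed by -0.42 ± 0.12 there with a limma adjusted p of 0.0468, and its call was lost under 14 of 27 alternatives. In Ctl it differed by -0.28 ± 0.11 (limma adjusted p = 0.148).

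Among 12 lipogenic regulators, 3 fell in cKO, and 2 fell and 1 rose in Ctl, with medians of -0.13 and -0.09. Over all genes, 4.74% fell in cKO, and 4.57% fell and 3.32% rose in Ctl. Insig1, which holds Srebp precursors in the endoplasmic reticulum and is itself an Srebp target, measured 10.12, 9.80 and 9.97 in cKO EDL and 10.65, 10.58 and 10.64 in cKO sham. In Ctl it measured 9.93, 9.72, 9.98 and 9.89 after EDL and 10.68, 10.43, 10.59 and 10.77 after sham surgery. The groups were separate in both genotypes, as for 25.8% of all genes in cKO and 14.1% in Ctl. Insig1 fell, with a difference of -0.66 ± 0.10 in cKO and -0.74 ± 0.09 in Ctl (limma adjusted p = 0.00108 and 9.39e-05). Srebf1, which encodes Srebp-1, fell, with a difference of -0.44 ± 0.10 in cKO and -0.43 ± 0.09 in Ctl (adjusted p = 0.0154 and 0.00838). Its cKO call was lost without replicates 2 (0.0518) or 4 (0.0697) of cKO EDL or replicates 2 (0.0509) or 4 (0.0505) of cKO sham. Nr1h3, the oxysterol receptor LXR alpha, rose by 0.50 ± 0.10 in Ctl (adjusted p = 0.00736) and differed by 0.12 ± 0.12 in cKO. Ppard fell by 0.38 ± 0.09 in cKO (adjusted p = 0.0194) and differed by -0.17 ± 0.08 in Ctl (adjusted p = 0.261). Without replicates 3 (0.0637) or 4 (0.0625) of cKO sham or replicate 4 of cKO EDL (0.0845), or with only the cKO arrays fitted (0.0808), the cKO difference was not called.

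Among 13 genes of fatty acid activation and uptake, 1 fell and 1 rose in cKO and 1 fell in Ctl, with medians of 0.01 and 0.15. The shares over all genes were 4.74% that fell and 5.04% that rose in cKO, and 4.57% that fell in Ctl. Mfsd2a, the transporter of lysophosphatidylcholine that carries docosahexaenoic acid into brain and eye, measured 8.82, 8.44 and 8.54 in cKO EDL and 11.95, 11.50 and 11.63 in cKO sham. In Ctl it measured 8.80, 8.40, 8.79 and 8.50 after EDL and 11.71, 11.31, 11.64 and 11.82 after sham surgery. Every EDL array lay more than 2 log2 units below every sham array, and Mfsd2a fell, with a difference of -3.10 ± 0.16 in cKO and -2.99 ± 0.14 in Ctl (limma adjusted p = 9.25e-09 and 2.03e-09), 8.56-fold and 7.97-fold lower. Cd36, a fatty acid receptor of macrophages, fat and endothelium, measured 6.61, 7.37 and 6.58 in cKO EDL and 4.30, 5.60 and 4.67 in cKO sham, where its mean of 4.86 is under the background level. It was at least 2.9-fold higher in cKO EDL against that level (limma adjusted p = 0.0162), and differed by 0.79 ± 0.41 in Ctl (adjusted p = 0.309). Its call was lost without replicates 2 (0.0839) or 4 (0.053) of cKO sham or replicate 3 of cKO EDL (0.0583), or with the p-values of the authors' deposited table (0.0596).

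**Figure D3:**
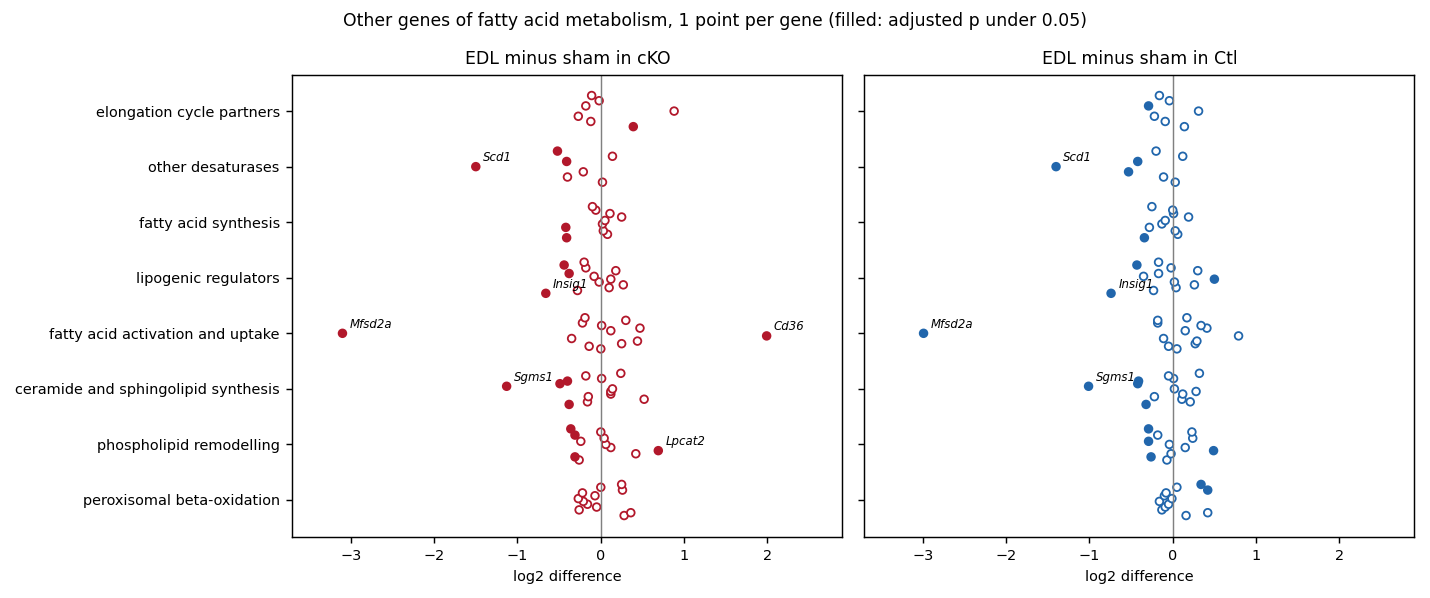
EDL minus sham log2 differences (x axis) of the measured genes of 8 lists of fatty acid metabolism (y axis), 1 point per gene, in cKO (left) and Ctl (right). Filled points mark an adjusted p under 0.05, and called genes that differ by at least 0.6 are named. Mfsd2a, Scd1 and Sgms1 stand apart on the lower side in both panels, and most points lie near 0.

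The ceramide and sphingolipid genes, whose products hold many very long acyl chains, had 4 of 13 members that fell in each genotype and none that rose. Their medians were -0.15 in cKO and 0.01 in Ctl, and 4.74% of all genes fell in cKO and 4.57% in Ctl. Sgms1, a sphingomyelin synthase, measured 9.60, 9.49 and 9.40 in cKO EDL and 10.74, 10.59 and 10.56 in cKO sham, and ranged from 9.47 to 9.70 in Ctl EDL and from 10.54 to 10.63 in Ctl sham. It fell, with a difference of -1.13 ± 0.09 in cKO and -1.01 ± 0.07 in Ctl (limma adjusted p = 7.53e-07 and 3.93e-07). Sgms2, the other synthase of this reaction, fell, with differences of -0.49 ± 0.07 in cKO and -0.42 ± 0.06 in Ctl (adjusted p = 0.000462 and 0.000415). Cers2, the ceramide synthase that uses very-long-chain acyl-CoA, fell, with a difference of -0.38 ± 0.09 in cKO and -0.32 ± 0.08 in Ctl (adjusted p = 0.0188 and 0.025). The Cers2 call was lost in cKO without replicates 3 (0.0612) or 4 (0.054) of cKO EDL or replicates 2 (0.0971) or 4 (0.0544) of cKO sham, or with only the cKO arrays fitted (0.085). In Ctl it was lost without Ctl EDL replicate 3 (0.0775), Ctl sham replicate 4 (0.0641), Ctl EDL replicate 4 (0.0565) or Ctl sham replicate 5 (0.088). Cers3, which in skin takes chains made by Elovl4, averaged 5.38 in cKO EDL and 5.55 in cKO sham, and 5.38 in Ctl EDL and 5.17 in Ctl sham, where the Ctl sham mean is under the background level of 5.31, and it was called in neither genotype. Sptlc1, a subunit of the enzyme that begins sphingolipid synthesis, differed by -0.40 ± 0.12 in cKO (adjusted p = 0.0426) and -0.41 ± 0.10 in Ctl (adjusted p = 0.0193), and its calls were lost under 13 and 4 of 27 alternatives.

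Of 11 genes of phospholipid remodelling, 3 fell and 1 rose in each genotype, with medians of 0.00 and -0.04. Over all genes, 4.74% fell and 5.04% rose in cKO, and 4.57% fell and 3.32% rose in Ctl. Lpcat2, a lysophospholipid acyltransferase of inflammatory cells, rose by 0.69 ± 0.13 in cKO (limma adjusted p = 0.00377) and by 0.49 ± 0.11 in Ctl (adjusted p = 0.0136). Lpcat3, which places polyunsaturated chains into phospholipids, differed by 0.12 ± 0.07 in cKO and 0.15 ± 0.06 in Ctl and was called in neither. The falls in this list, of Pla2g6, Lclat1, Mboat7 and Mboat1, had differences from -0.36 to -0.26, and each was lost under at least 3 of 27 alternatives. Of 12 peroxisomal genes, which shorten very long chains, none was called in cKO, with medians of -0.06 in cKO and -0.03 in Ctl. In Ctl 2 rose, where 3.32% of all genes rose. These were Ehhadh, by 0.42 ± 0.10, and Scp2, by 0.34 ± 0.08 (limma adjusted p = 0.0138 and 0.0127). In cKO they differed in the same direction, by 0.26 ± 0.11 and 0.25 ± 0.09 (limma adjusted p = 0.174 and 0.0943). Neither was called in the interaction (limma adjusted p = 0.985 for each).

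Markers of several cell types moved with EDL, and in bulk tissue fewer cells of a type and less RNA per cell cannot be told apart. For comparison, 4.74% of all genes fell and 5.04% rose in cKO, and 4.57% fell and 3.32% rose in Ctl. The initial segment list had 7 of 10 genes that fell in each genotype, with a summed linear intensity of 22533 to 25819 in cKO EDL, 56073 to 58309 in cKO sham, 23146 to 26514 in Ctl EDL and 51666 to 55523 in Ctl sham. No marker of this list was under background in any group. The sperm and spermatid list had 7 of 12 that fell in cKO and 11 of 12 in Ctl, with sums of 808 to 1601 in cKO EDL, 2703 to 3394 in cKO sham, 777 to 1524 in Ctl EDL and 2832 to 4197 in Ctl sham. Akap4, Tnp1, Smcp, Gapdhs and Ldhc averaged under background in both EDL groups. The caput principal cell list had 3 that fell and 1 that rose of 8 in each genotype. Its sums were 63651 to 66709 in cKO EDL, 78610 to 80919 in cKO sham, 61590 to 68694 in Ctl EDL and 75279 to 78920 in Ctl sham.

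The macrophage and monocyte list rose, 10 of 10 in cKO and 9 of 10 in Ctl, with sums of 7094 to 7847 in cKO EDL, 2416 to 3775 in cKO sham, 5717 to 8312 in Ctl EDL and 2675 to 3863 in Ctl sham. Lpcat2 was called higher in both genotypes and Cd36 in cKO only, and a link of either to these cells was not tested. Of 6 genes each, fibroblast markers rose in 4 cases and endothelial markers in 5 in cKO, where 5.04% of all genes rose. Neither list had a call in Ctl, where 3.32% of all genes rose. The fibroblast medians were 1.43 in cKO and 0.87 in Ctl, and the endothelial medians 0.78 and 0.33. Fibroblast sums were 8472 to 12754 in cKO EDL, 3022 to 6815 in cKO sham, 7502 to 10132 in Ctl EDL and 4329 to 7229 in Ctl sham. Neither list had a call between genotypes or in the interaction. Of 6 smooth muscle markers, 1 fell and 2 rose in cKO and 1 fell in Ctl. Of 6 basal cell markers, 3 rose in cKO, and 2 rose and 1 fell in Ctl, and of 6 clear cell markers 1 fell in each and 1 rose in Ctl. Adipocyte markers, which share lipogenic genes with other tissues, had 0 of 10 called in either genotype by limma at the adjusted threshold, with sums of 2285 to 2434 in cKO EDL, 2120 to 2335 in cKO sham, 2200 to 2590 in Ctl EDL and 2155 to 2578 in Ctl sham. Adipoq and Lep were under background in all groups. The adipocyte sum is weighted toward Pnpla2, which averaged 10.56 to 10.62 in the 4 groups. Fabp4 varied between arrays, with SDs from 0.26 in cKO sham to 1.54 in Ctl sham. A level sum therefore does not show an equal share of fat cells. The part of these cell types in the falls of Elovl4, Elovl6 and Elovl7 and in the falls and rises of the list genes was not tested.

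**Figure D4:**
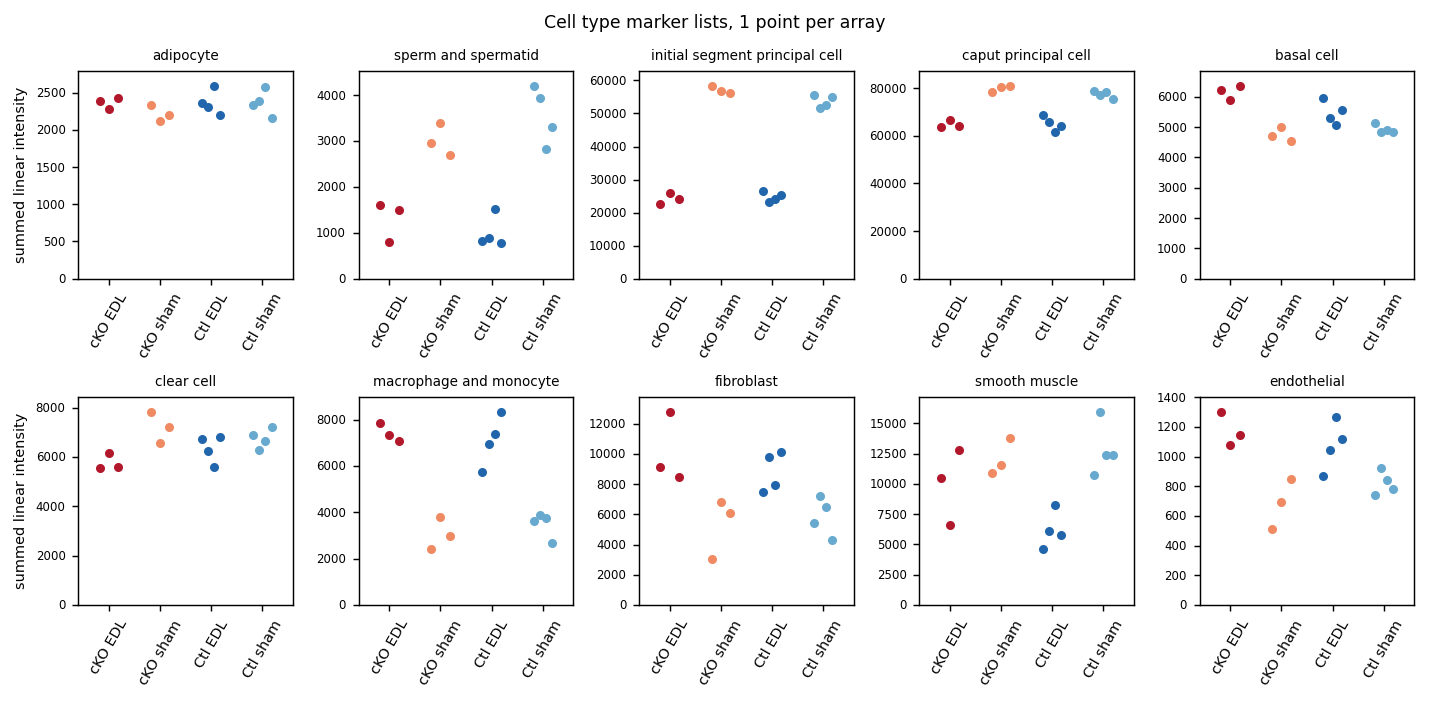
Summed linear intensity (y axis) of 10 cell type marker lists in the 4 groups, 1 point per array. The initial segment, caput principal cell and sperm lists lie lower and the macrophage and fibroblast lists higher in both EDL groups. The adipocyte sum, weighted toward Pnpla2, is level.

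The genes closest to a member were found as the smallest root mean square difference between profiles, a profile being a gene's 14 log2 values minus their mean. For Elovl4 they were Lcn9 at 0.266, Asb18 at 0.272, Etv5 at 0.281, Krt23 at 0.323 and Gm4846 at 0.334, with EDL minus sham differences from -4.68 to -3.88 in cKO and from -4.61 to -3.86 in Ctl. Lcn9 and Etv5 are on the initial segment list. For Elovl6 they were Tmf1 at 0.065, Atp6v1g2 at 0.074, Cdyl at 0.077, Khdrbs3 at 0.082 and Csnk2b at 0.084, all with differences between -0.68 and -0.39. For Elovl7 they were Slc16a13 at 0.129, Kcnk2 at 0.136, Rasa1 and Ptpre at 0.141 and Aldh1a7 at 0.146. Elovl6 and Elovl7 differed from each other by 0.222, and Elovl4 from Elovl7 by 1.646 and from Elovl6 by 1.825. As Elovl4 and its neighbours are separated mostly by surgery, this measure is a description of the 14 arrays.

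**Figure D5:**
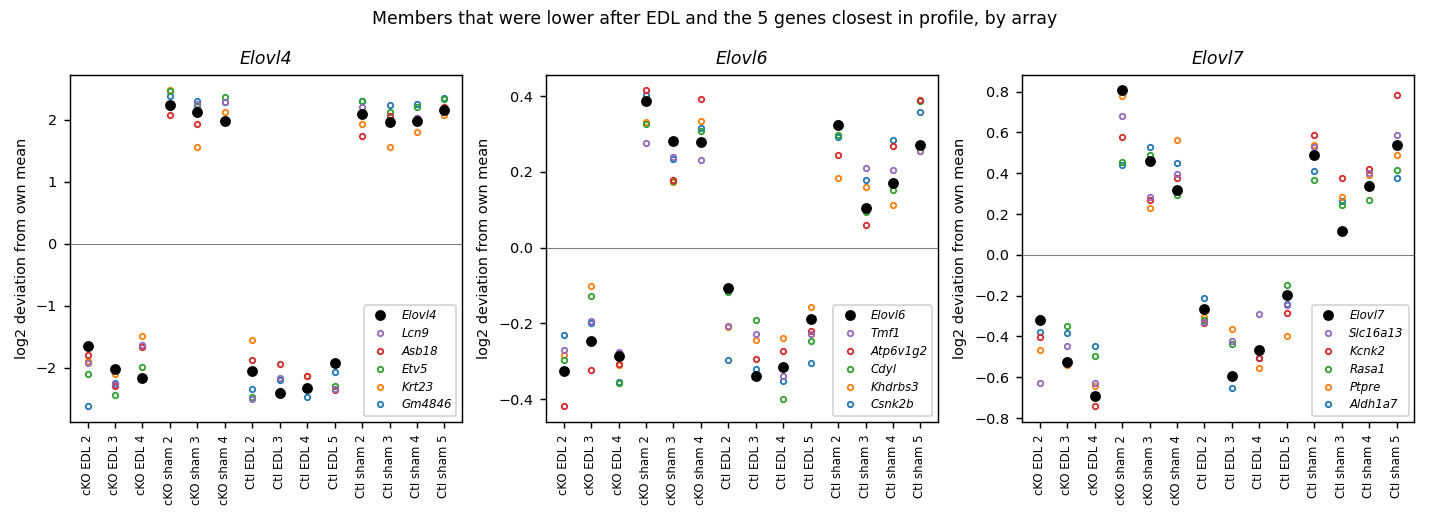
Log2 deviation from each gene's own 14-array mean (y axis) by array (x axis, group and replicate number) for Elovl4, Elovl6 and Elovl7 (filled) and the 5 genes closest to each (open). The y axes differ between panels, and in each the EDL arrays lie below 0 and the sham arrays above it for the member and its neighbours.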

How the data were processed

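Proximal epididymis RNA was measured on 14 one-colour Clariom S Mouse arrays. The deposited log2 intensities per probe set were used as given. RMA, Affymetrix Expression Console and Partek 7.0 are named per the submitters' processing notes, without role or order, with the annotation build not given in the sources used here. The authors' deposited table of comparisons holds p-values and linear ratios; these ratios equalled group differences of the log2 values to a tolerance of 0.001 in 100.0% of cases. Its p-values served as an alternative, and 14 array columns in it were not used. A further deposited table of log2 values served as an alternative.

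Of 22206 probe sets, 20456 were matched by RefSeq accession, which updated 916 symbols, and 3 had no symbol. The probe set with the highest mean represented a gene, giving 21929 genes. A linear model with 4 group means was fitted with limma 3.58.1 in R 4.3.3 (lmFit, eBayes, no filter, 10 residual degrees of freedom), and differences were adjusted by Benjamini-Hochberg over all genes in each of 5 contrasts. It was tested on simulated data. Summaries used Python 3.11.15 with pandas 2.3.3.

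The members and lists were chosen with earlier results of these data known. Up to 4 called genes per list and contrast, by smallest p, were eligible to be named, with values of uncalled genes added after they were seen. Faxdc2, Mbtps2, Acsl3 and Cers1 were not analysed here. Labels place replicates in separate mice but do not say that a replicate number marks a mouse. Alternatives were median centring, a second quantile normalization, other probe set rules, a filter on genes of low mean, variance models, array weights, the arrays compared alone, replicate blocks and each array left out.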

Additional observations from a re-analysis of the deposited data

Results flagged for a closer look

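Among 35 genes, 70 groups of 4 arrays were examined for an array far from its group, and 2 stood apart. A cut of this kind marks about 1 in 20 groups by chance. Hacd1 measured 8.91 in Ctl EDL replicate 4, above the other arrays of that group at 8.78 to 8.80. Hsd17b12 measured 10.02 in Ctl sham replicate 4, below the others at 10.21 to 10.24. No Ctl array of an Elovl or Fads gene stood apart in this way, and the cKO groups, of 3 arrays each, were not examined.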

How the results depend on the processing

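All 1305 recomputed member differences, over 27 alternatives, kept their side of the threshold. The ligation differences of Elovl4 are in that count but remain a description without a test. Of the other members, Elovl6 and Elovl7 were called in every alternative for EDL minus sham in both genotypes. By limma, 0 members were called for cKO minus Ctl in EDL or sham tissue or for the interaction. Elovl6 ran from -1.06 to -0.55 in cKO and from -0.76 to -0.42 in Ctl, and Elovl7 from -1.62 to -0.90 and from -1.16 to -0.68. Signs changed in 11 uncalled results near 0. With arrays centred on their medians, Fads2 was -0.05 in EDL minus sham in cKO, Elovl2 and Fads1 were -0.02 each in Ctl, and Elovl5 was -0.02 in the interaction. A second quantile normalization gave 0.03 for the Fads2 interaction. Without 1 array, EDL minus sham ran from -0.08 to 0.09 for Elovl2 and from -0.03 to 0.04 for Fads1 in Ctl, and from -0.21 to 0.06 for Elovl3 in cKO. The interaction ran from -0.03 to 0.06 for Elovl5 and from -0.04 to 0.02 for Fads2. In EDL tissue cKO minus Ctl ran from -0.04 to 0.12 for Elovl1 and from -0.09 to 0.14 for Elovl3, and in sham tissue from -0.04 to 0.10 for Elovl2, from -0.03 to 0.04 for Fads1 and from -0.12 to 0.04 for Fads3. Genes called in EDL minus sham in cKO numbered 2146, 1375 with only the arrays compared, and 1063 to 2197 without 1 array (1063 without cKO sham replicate 2, 1305 without cKO EDL replicate 2). Genes called in cKO minus Ctl in sham tissue numbered 0 to 4 without 1 array, 4 being without Ctl EDL replicate 4. Median centring lowered rises among called genes to 34.9% in cKO and 32.8% in Ctl, against 51.5% and 42.0%. Of 38 calls of list genes, 20 were kept throughout, and 60 of 1048 list counts moved by over 1.5 times. The cause was not tested. Elovl3 had no value after the filter on low genes, and some alternatives could not be fitted for the genotype contrasts or the interaction.

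Replicate numbers were not taken as pairing. Deviations of same-numbered EDL and sham arrays correlated between -0.002 and 0.198, over 0.1 in 2 of 7 pairs, and 4 of 7 had their own number as best partner. With the mouse as a fixed replicate block, 1955 genes were called in cKO and 1629 in Ctl, with Elovl6 at -0.60 (limma adjusted p = 0.00201) and -0.45 (0.00384) and Elovl7 at -1.04 (6.51e-05) and -0.75 (0.000167). With a random block, 2607 and 2090 genes were called. No member's call changed under either block, and Hsd17b12 (limma adjusted p = 0.06), Lclat1 (0.0607), Mboat1 (0.0937) and Pla2g6 (0.0579) were not called in Ctl under the fixed block.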
